A study of Mus musculus with 9 samples.

Results

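The genes of the hypoxia-inducible factors (HIFs) and of their regulators were examined in heart RNA. The 10 genes were taken by symbol from the deposited count table, out of 13890 genes in all. The rule itself uses no measured value, but the genes were chosen with earlier results of these data known. They comprised the alpha subunits Hif1a, Epas1 and Hif3a, the prolyl hydroxylases Egln1, Egln2 and Egln3, the asparagine hydroxylase Hif1an, and the HIF-responsive genes Adm, Ankrd37 and Ndrg1. All 10 passed the filter on low counts that left 13364 genes for testing.

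The study asked whether blocking ligands of the activin receptor ACVR2B protects muscle and heart of mice with liver metastases of colorectal cancer. All animals were NSG males, a strain with the scid mutation and no functional IL2Rg, which therefore lacks T, B and NK cells and accepts human tumour cells. They entered the study at 8 weeks of age and were killed about 3 weeks after surgery. Sham mice (S, animals 2, 3 and 5) had sham surgery and weekly saline, tumour hosts (T, animals 11, 12 and 15) had HCT116 cells, a human colorectal cancer line, injected into the spleen and weekly saline, and treated hosts (A + T, animals 20, 21 and 22) had the same cells and weekly ACVR2B/Fc. ACVR2B/Fc is the soluble extracellular part of the receptor fused to an antibody Fc fragment, and it traps activins, myostatin and related ligands. No library analysed here is labelled as the heart of a mouse treated with ACVR2B/Fc in the absence of tumour cells.

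The libraries held 12392222 to 19732471 counts, of which the ribosomal RNA gene Rn45s took 4.57% to 19.6%. The summed level of 8 cardiomyocyte markers was 54099 to 82348 CPM (counts scaled to library size, adjusted by the trimmed mean of M-values, TMM) and none of them was at 0 in any library. Animals 12 (T) and 22 (A + T) stood apart, with 195 and 1451 CPM of airway and lung markers (6 of the 10 listed genes were in the table) against at most 4.06 CPM in each of the other 7 libraries. Summed atrial markers (7 genes) lay between 3229 and 3289 CPM in S, 901 and 4869 CPM in T and 837 and 2229 CPM in A + T. Results for the HIF genes that rest on animals 12 and 22 are given with and without them. The libraries labelled T also carry a doubt: gene by gene, their difference from S matched the values that the study lists for ACVR2B/Fc without a tumour against sham, and not those it lists for tumour hosts against sham. With the former the Pearson r was 0.99987, with the same sign in 428 of 429 genes. With the latter it was 0.275, with the same sign in 326 of 429 genes. The difference between A + T and T did not match the values listed for treated against untreated tumour hosts either (Pearson r = 0.266, same sign in 282 of 429 genes). Whether libraries or list headings were exchanged cannot be told apart, so T stands here for the libraries labelled T. The doubt applies to every comparison with T.

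HIFs are the transcription factors through which cells respond to low oxygen. An alpha subunit pairs with ARNT and binds a short DNA core, and it is kept scarce in oxygenated cells because the Egln enzymes hydroxylate it on prolines, after which the VHL ubiquitin ligase removes it. Hif1an hydroxylates an asparagine and so blocks the contact with the coactivators p300 and CBP. Much of this control acts on the protein, which mRNA levels do not show. In the heart, HIF1A is best known for glycolytic and mitochondrial genes in hypoxic myocardium, EPAS1 for its high level in endothelium, and HIF3A for short forms that can restrain the other alpha subunits.

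Between T and S, 4 of the 10 genes differed at an adjusted P under 0.05 (edgeR, Benjamini-Hochberg over all genes tested). Hif3a, Hif1a and Ndrg1 were higher and Egln3 was lower. Of all genes tested, 21.2% were called in this comparison, 10.3% as higher and 11% as lower. Between A + T and T, Hif3a alone was called, as lower, where the share of all genes was 5.88%, with 3.09% higher and 2.79% lower. Against S, A + T differed in Egln3 alone, which was again lower, where the share was 8.31%, with 4.67% higher and 3.64% lower. The first and second comparisons share the T libraries and the first and last share the S libraries, so their values are set side by side and are not independent.

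At the thresholds that the study used, an unadjusted P under 0.05 with a change of 1.5-fold or more, 2 members passed in T vs. S (Hif3a and Egln3), against 14.2% of all genes. Hif3a alone passed in A + T vs. T, against 8.1%, and 2 passed in A + T vs. S (Hif3a and Egln3), against 8.91%. The groups did not overlap for 5 of the 10 genes between T and S, for 1 between T and A + T and for 3 between S and A + T. The shares of all genes without overlap were 42.6%, 25.4% and 32.4%, so that the shares of members without overlap were near the background in both comparisons with S.

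**Figure D1:**
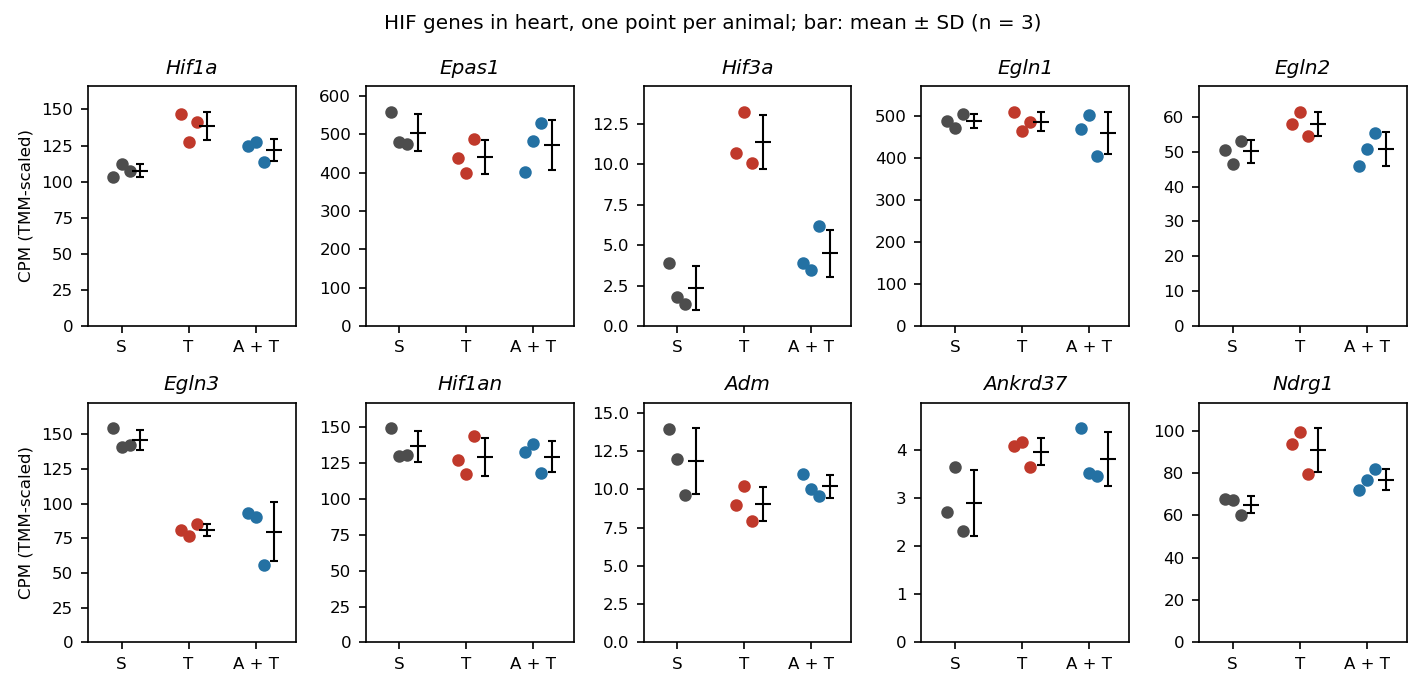
Level of each HIF gene in the 9 hearts, as TMM-scaled CPM on a linear axis from 0, with 1 point per animal and the mean ± SD of the 3 animals of each group beside it. Hif3a is higher in every T library than in any other library, Egln3 is lower in every T and A + T library than in any S library, and Egln1, Epas1 and Hif1an overlap between the groups.

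Hif3a, which encodes the alpha subunit with the lowest mRNA level in these hearts, showed the widest difference. Its gene lies on the minus strand of chromosome 7 (GRCm38, chr7:17031507-17062427). In S it reached 3.87, 1.78 and 1.37 CPM (animals 2, 3 and 5), in T 10.7, 13.3 and 10.1 CPM, and in A + T 3.89, 3.44 and 6.16 CPM. The T libraries all lay above the others, whereas S and A + T overlapped. The counts behind these values ran from 19 to 223 per library.

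The mean of Hif3a was 2.34 ± 1.34 CPM in S, 11.4 ± 1.67 CPM in T and 4.50 ± 1.45 CPM in A + T (SD, n = 3). Hif3a rose 4.80-fold in T vs. S (log2 fold change 2.26, 95% interval 1.5003 to 3.02, adjusted P = 0.00164 from edgeR). This call was made in all 19 settings tried, and without animals 12 and 22 the log2 fold change was 2.14 (edgeR adjusted P = 0.00116). In bulk heart RNA, a change in the number of cells of a type and a change in RNA per cell cannot be told apart.

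Hif3a was lower in A + T than in T, where it fell by 1.33 on the log2 scale (95% interval −2.06 to −0.61, edgeR adjusted P = 0.0418). The call was close to its limit: it was lost when animal 3, 11, 12, 15, 20 or 21 was left out, with adjusted P values up to 0.118 (edgeR, without animal 11), and with the deposited log2 values in limma (adjusted P = 0.0570). Without animals 12 and 22 it stood at −1.503 (edgeR adjusted P = 0.0323). Hif3a in A + T was 1.90-fold its level in S and was not called (log2 fold change 0.93, 95% interval 0.15 to 1.71, edgeR adjusted P = 0.127). Without animal 2 of S, whose Hif3a was the highest of its group, the log2 fold change was 1.505 and passed (edgeR adjusted P = 0.0420).

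Among the counts of the 3 alpha subunits, Hif3a made up 0.236% to 0.581% in S, 1.58% to 2.45% in T and 0.561% to 0.948% in A + T, a description made after the values were seen. Even at its highest, Hif3a remained a small part of the alpha subunit reads.

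Hif1a encodes the alpha subunit present in most cell types (plus strand, chr12:73901375-73947530). Its level was 103, 112 and 107 CPM in S, 147, 127 and 141 CPM in T, and 125, 128 and 113 CPM in A + T. Every T library lay above every S library, and A + T lay above S but overlapped T by the narrow margin of animal 21. Hif1a rose 1.29-fold in T vs. S, from 107 ± 4.603 to 139 ± 9.93 CPM (log2 fold change 0.37, 95% interval 0.18 to 0.55, edgeR adjusted P = 0.0111), and without animals 12 and 22 the value was 0.43. The call was lost only when libraries were scaled by their size alone (adjusted P = 0.154, edgeR). A + T, at 122 ± 7.54 CPM, was between the others and differed from neither at the threshold, with log2 fold changes of −0.18 against T (95% interval −0.37 to −0.0026, edgeR adjusted P = 0.216) and 0.18 against S (95% interval −0.0018 to 0.36, edgeR adjusted P = 0.195).

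Epas1, the gene of HIF2-alpha, had the highest mRNA level of the alpha subunits by the deposited log2 values. It measured 559, 481 and 474 CPM in S, 437, 400 and 488 CPM in T and 401, 482 and 530 CPM in A + T, with overlap in every comparison. The log2 fold changes were −0.19 in T vs. S (95% interval −0.46 to 0.075), 0.094 in A + T vs. T (−0.17 to 0.36) and −0.10 in A + T vs. S (−0.37 to 0.17), and none was called (edgeR adjusted P = 0.284, 0.694 and 0.640). The summed endothelial markers (8 of 8 genes in the table, none at 0) moved as well, at 900 to 1042 CPM in S, 555 to 694 CPM in T and 685 to 862 CPM in A + T. Of these markers, 5 were called as lower in T vs. S (Cdh5, Kdr, Tie1, Tek and Emcn). The other 3 were not called, with log2 fold changes of −0.40 for Pecam1, −0.040 for Egfl7 and −0.039 for Esam. In a ratio computed after the levels had been seen, Epas1 stood at 46.3% to 53.7% of the endothelial sum in S, 64.4% to 78.7% in T and 58.5% to 61.5% in A + T. The groups did not overlap in this ratio, although they did in Epas1 itself. The S libraries already lay above all others in the endothelial sum, so other genes of steady level would tend to separate from S in such a ratio too. No share of such ratios over other genes was computed, so the ratio shows no trait particular to Epas1. The part of the endothelial markers in the Epas1 level was not tested.

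**Figure D2:**
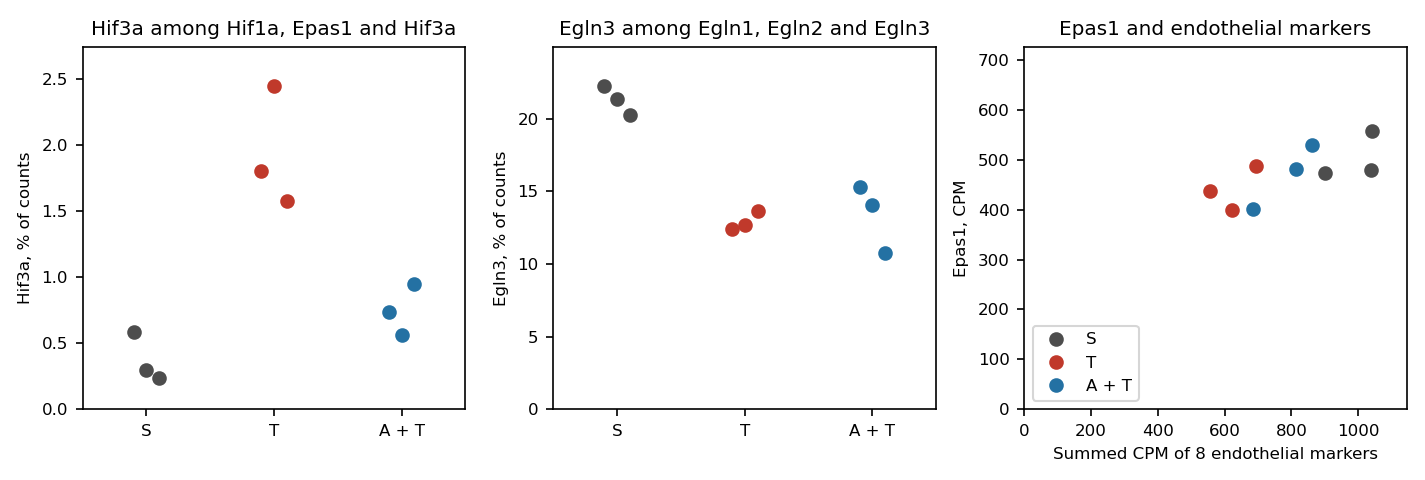
Left, Hif3a as a percentage of the counts of Hif1a, Epas1 and Hif3a; middle, Egln3 as a percentage of the counts of Egln1, Egln2 and Egln3; right, Epas1 (CPM) against the summed CPM of 8 endothelial markers, with 1 point per animal and axes from 0. The Hif3a share is highest in T (1.58% to 2.45%), the Egln3 share is highest in S (20.3% to 22.3%), and the S libraries lie furthest to the right in the endothelial sum.

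Of the oxygen sensors, Egln3 was the only one called in any comparison. Egln3, also known as PHD3, is a prolyl hydroxylase that is itself induced by HIFs (minus strand, chr12:54178981-54203860). It measured 154, 141 and 142 CPM in S, 80.7, 76.4 and 85.4 CPM in T, and 93.2, 90.6 and 55.5 CPM in A + T. All 6 libraries labelled as tumour hosts lay below the 3 S libraries, and animal 22 was the lowest of the 9.

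Egln3 in T was 0.554 of its level in S, at 80.8 ± 4.49 against 146 ± 7.43 CPM (log2 fold change −0.85, 95% interval −1.21 to −0.49, edgeR adjusted P = 0.00493), and this call was made in all 19 settings. A + T, at 79.8 ± 21.1 CPM, was 0.547 of S (log2 fold change −0.87, 95% interval −1.23 to −0.51, edgeR adjusted P = 0.0125). Without animals 12 and 22 the values were −0.80 and −0.66 (edgeR adjusted P = 9.83e-05 and 0.00117). The A + T call was lost without animal 2 (edgeR adjusted P = 0.0588). Between A + T and T the log2 difference was −0.019 (95% interval −0.38 to 0.34, edgeR adjusted P = 0.962), and without animals 12 and 22 it was 0.15.

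Egln1 (PHD2), the main prolyl hydroxylase of HIF1A in oxygenated cells, had the highest level of the 10 genes by the deposited log2 values and varied little. It lay between 472 and 505 CPM in S, 463 and 510 CPM in T and 406 and 504 CPM in A + T. T and S differed by −0.0039 on the log2 scale, with a 95% interval of −0.21 to 0.20 (edgeR adjusted P = 0.980). Egln2 (PHD1), the most nuclear of the 3 enzymes, measured 50.5, 46.6 and 53.1 CPM in S, 58.1, 61.4 and 54.5 CPM in T and 45.9, 50.9 and 55.5 CPM in A + T. T and S did not overlap for Egln2, yet the difference of 0.21 was not called (95% interval 0.014 to 0.41, edgeR adjusted P = 0.118).

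The counts of the 3 prolyl hydroxylases were therefore divided differently between the groups. Egln3 accounted for 20.3% to 22.3% of them in S, 12.4% to 13.6% in T and 10.7% to 15.3% in A + T, values that were computed after the levels had been seen and carry no test. Hif1an (FIH), the asparagine hydroxylase, stayed between 118 and 149 CPM across the 9 libraries, and its log2 fold changes were −0.078 in T vs. S, 0.0016 in A + T vs. T, and −0.076 between A + T and S (edgeR adjusted P = 0.619, 0.997 and 0.667).

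The 3 members listed as HIF-responsive, besides Egln3, did not share a sign in T vs. S, and Ndrg1 alone of them was called. Ndrg1, a gene induced by hypoxia and by growth arrest (minus strand, chr15:66929318-66969640), measured 67.6, 67.4 and 60.3 CPM in S, 93.6, 99.4 and 79.3 CPM in T and 71.8, 76.8 and 81.8 CPM in A + T. T lay above S without overlap, and A + T lay above S and overlapped T only through animal 22. Ndrg1 rose 1.40-fold in T vs. S, from 65.1 ± 4.15 to 90.8 ± 10.3 CPM (log2 fold change 0.48, 95% interval 0.26 to 0.70, edgeR adjusted P = 0.00676), and the call was lost only with scaling by library size alone (adjusted P = 0.0662, edgeR). Without animals 12 and 22 the value was 0.42. A + T differed by −0.24 from T (95% interval −0.46 to −0.027) and by 0.24 from S (95% interval 0.022 to 0.45), and neither was called (edgeR adjusted P = 0.175 and 0.153).

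Adm encodes adrenomedullin, a vasodilator peptide. It measured 13.9, 11.97 and 9.62 CPM in S, 8.98, 10.2 and 7.95 CPM in T and 11.003, 10.05 and 9.55 CPM in A + T. Its log2 fold change in T vs. S was −0.39 (95% interval −0.73 to −0.043, edgeR adjusted P = 0.103), with overlap between the groups. Ankrd37, an ankyrin repeat gene that is a direct HIF1A target, had few reads, from 32 to 72 counts per library, and its level was 2.71, 3.65 and 2.31 CPM in S, 4.09, 4.16 and 3.65 CPM in T and 4.45, 3.52 and 3.45 CPM in A + T. The difference of 0.45 between T and S was not called (95% interval −0.018 to 0.91, edgeR adjusted P = 0.155).

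**Figure D3:**
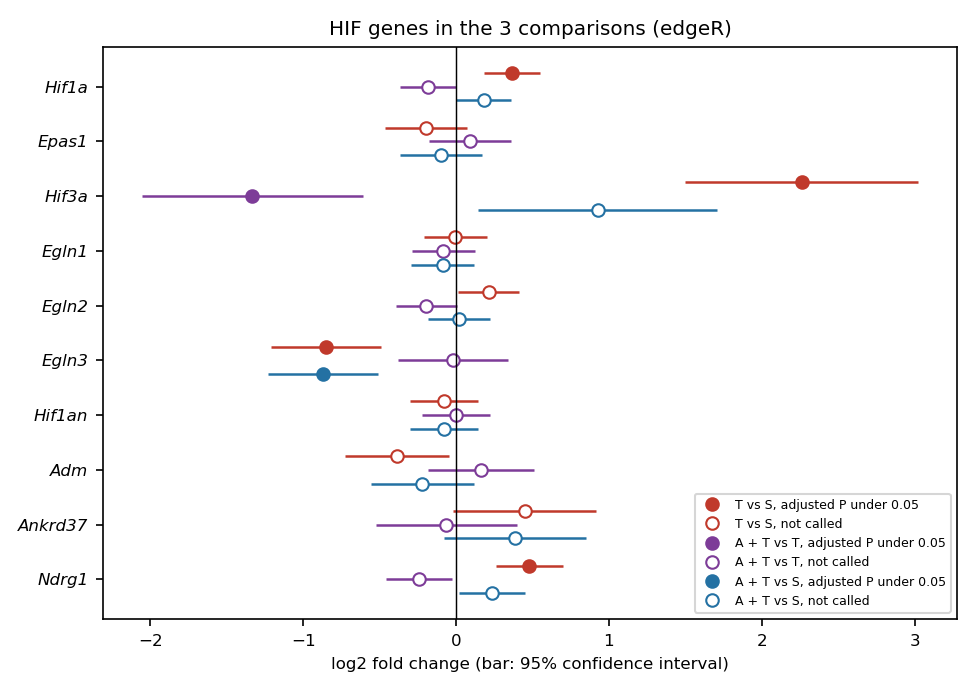
Log2 fold change of the 10 genes in the 3 comparisons, with bars for the 95% confidence interval and filled points for an edgeR adjusted P under 0.05. The filled points are Hif1a, Hif3a, Egln3 and Ndrg1 in T vs. S, Hif3a in A + T vs. T and Egln3 in A + T vs. S, and the intervals of Hif3a are the widest.

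The order of the genes was read from the deposited log2 values, which appear to be scaled by gene length. The lengths behind them are not given in the sources used here, so the order of genes close to each other depends on lengths that are unknown. In S the means were 7.10 ± 0.048 for Egln1, 6.55 ± 0.13 for Epas1 and 5.76 ± 0.072 for Egln3 (SD, n = 3). Egln2 (4.56 ± 0.095), Hif1a (4.49 ± 0.063), Ndrg1 (4.49 ± 0.094) and Hif1an (4.45 ± 0.11) followed and did not differ from each other beyond their spread. Adm (3.09 ± 0.27), Ankrd37 (1.71 ± 0.32) and Hif3a (−1.65 ± 0.74) were the lowest. In T the order of Egln3 changed, since its mean of 4.91 ± 0.082 then lay within the spread of Ndrg1 (4.96 ± 0.17) and Hif1a (4.86 ± 0.11), whereas Hif3a, at 0.69 ± 0.20, was still the lowest.

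The variation between animals within a group also differed among the genes. The biological coefficient of variation fitted by edgeR ran from 0.0854 for Hif1a to 0.276 for Hif3a, against a common value of 0.142 for all genes. The precision of Hif3a was thus the poorest of the 10.

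The genes whose pattern was most like that of Hif3a over the 9 libraries were Nr1h3, the oxysterol receptor LXR-alpha (Pearson r = 0.979 of log2 CPM), Eml2 (0.972), Hgs (0.972), Hecw2 (0.972) and Ogfod3 (0.970). Nr1h3 measured 13.5 to 16.9 CPM in S, 21.6 to 25.4 CPM in T and 15.9 to 21.1 CPM in A + T. These correlations describe 9 libraries that fall into the same 3 groups and share their depth, and they carry no test.

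Because HIFs bind the cores ACGTG and GCGTG, the 250 bases before the RefSeq start (GRCm38.p6) were searched on both strands for the 8 members that the promoter table holds. In 7 of the 8 members, and in 8 of their 9 windows, a core was found. Of all 32851 windows of this length 38.6% held one (16.6% ACGTG and 28.2% GCGTG). The windows of the members held 48% to 86% G or C, and the share over all windows was not matched for this. The longer palindrome CACGTG, which contains ACGTG, was in 6.02%. The windows of the members past 1.5-fold in T vs. S are shown, with the cores in capitals. That of Hif3a (chr7:17062428-17062677, minus strand) holds 2 GCGTG cores, the first of them on the opposite strand and so written CACGC, and the nearer lies 186 bases before the start. That of Egln3 (chr12:54203875-54204124, minus strand) holds 1 ACGTG core 229 bases before the start. A match describes these letters and is not a bound site.
Hif3a: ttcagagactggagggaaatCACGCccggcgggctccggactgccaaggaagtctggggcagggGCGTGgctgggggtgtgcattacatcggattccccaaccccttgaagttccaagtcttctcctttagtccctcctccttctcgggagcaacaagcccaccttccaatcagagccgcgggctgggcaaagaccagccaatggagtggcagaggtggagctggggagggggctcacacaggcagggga
Egln3: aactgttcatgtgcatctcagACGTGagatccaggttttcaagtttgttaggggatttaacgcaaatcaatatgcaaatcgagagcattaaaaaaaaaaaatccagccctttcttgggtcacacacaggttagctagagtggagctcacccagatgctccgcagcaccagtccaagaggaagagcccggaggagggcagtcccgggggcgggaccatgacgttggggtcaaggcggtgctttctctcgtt

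The other genes of the pathway, those of the HIF partner, the VHL complex, the coactivators and the chaperones, were followed as a list of 15, all of which were tested. In T vs. S, 2 rose and 1 fell, and these 3 of 15 are near the 21.2% of all genes called. The median log2 fold change was −0.0083 (−0.0038 for all genes). Siah1a, a ubiquitin ligase that directs prolyl hydroxylases to degradation, measured 14.8, 16.2 and 16.1 CPM in S and 26.6, 25.4 and 28.9 CPM in T, a rise of 0.78 on the log2 scale (SE 0.089), and Cited2, which competes with HIFs for p300 and CBP, rose by 0.49 (SE 0.14). Hsp90aa1, a chaperone of HIF1A, fell by 0.38 (SE 0.083).

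Between A + T and T, 0 of the 15 were called by edgeR, beside 5.88% of all genes, with Arnt, Siah1a and Hsp90ab1 at an unadjusted P under 0.05, and DESeq2 and limma-voom called 0 as well. Against S, 4 of the 15 were called, beside 8.31% of all genes, with a median of 0.039 (0.0034 for all genes). Siah1a (0.54, SE 0.089) and Tceb1, the elongin C of the VHL complex (0.46, SE 0.12), rose, whereas Hsp90aa1 (−0.54, SE 0.083) and Hsp90ab1 (−0.38, SE 0.10) fell. Vhl itself and Arnt were not called in any of the comparisons, with log2 fold changes of −0.38 and 0.28 in T vs. S (edgeR adjusted P = 0.0618 and 0.0587). Unlike Siah1a, Siah2 had negative log2 fold changes in T (−0.72) and in A + T (−1.11) against S. It measured 15.7, 14.2 and 14.5 CPM in S, 7.18, 5.70 and 14.5 CPM in T and 4.76, 6.39 and 9.42 CPM in A + T. T thus overlapped S through animal 15. Neither difference of Siah2 was called (edgeR adjusted P = 0.130 and 0.0591).

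A list of 39 textbook HIF target genes was examined in the same way, of which 36 were tested. In T vs. S, 9 rose, 6 fell and 21 did not pass, so that 15 of 36 were called beside 21.2% of all genes, with a median log2 fold change of 0.064 (−0.0038 for all genes). The changes ran both ways. The mitophagy receptor Bnip3 measured 129, 137 and 137 CPM in S, 298, 305 and 350 CPM in T and 176, 190 and 219 CPM in A + T, with no overlap between any of the groups, and it rose by 1.25 on the log2 scale (SE 0.10, edgeR adjusted P = 8.9e-05). Ldha, which makes lactate from pyruvate, rose by 0.49 (SE 0.083), the collagen cross-linking enzyme Lox by 1.19 (SE 0.22), and Hmox1, the heme oxygenase, by 1.11 (SE 0.22).

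Among the targets that fell in T vs. S were the chemokine receptor Cxcr4 (−1.77, SE 0.31), the collagen prolyl hydroxylase subunit P4ha1 (−0.63, SE 0.11), the transferrin receptor Tfrc (−1.57, SE 0.33) and the angiogenic factor Vegfa (−0.49, SE 0.13). Vegfa measured 399, 426 and 429 CPM in S and 293, 248 and 354 CPM in T. Summed fibroblast markers (6 genes, all lower in T vs. S) were at 1699 to 1866 CPM in S, 886 to 1027 CPM in T and 1228 to 1939 CPM in A + T. In S, T and A + T, the mean of Lox was 7.93, 18.1 and 13.1 CPM. That of P4ha1 was 85.7, 55.3 and 51.4 CPM. The part of the fibroblast markers in the levels of Lox and P4ha1 was not tested.

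ACVR2B/Fc hosts differed from T in 6 of the 36 targets, 2 higher and 4 lower, beside 5.88% of all genes, with a median of −0.10 (0.0098 for all genes). Bnip3 fell by 0.70 (SE 0.099), Ldha by 0.36 (SE 0.082), Gpi1, an enzyme of glycolysis, by 0.36 (SE 0.087) and Bhlhe40, a repressor of the circadian clock, by 0.55 (SE 0.14). Cxcr4 rose by 1.91 (SE 0.31) and Higd1a, a mitochondrial protein of the respiratory chain, by 0.43 (SE 0.082). Summed macrophage markers (6 genes) were at 291 to 332 CPM in S, 276 to 374 CPM in T and 532 to 774 CPM in A + T. Cxcr4, a receptor of leukocytes, measured 6.25, 6.70 and 4.77 CPM in S and 1.36, 1.54 and 2.43 CPM in T. In A + T it was at 7.97, 4.02 and 7.57 CPM. The part of the macrophage markers in the level of Cxcr4 was not tested. The count of targets in this comparison moved with the setting, from 1 without animal 11 to 11 with DESeq2. The calls among all 13364 genes moved as well, from 130 without animal 11 to 1200 with DESeq2, against 786 in the fit reported above.

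Compared with S, 5 of the 36 targets were called in A + T, beside 8.31% of all genes, with a median of 0.071 (0.0034 for all genes). Angptl4, an inhibitor of lipoprotein lipase, measured 1.82, 4.67 and 10.8 CPM in S, 58.3, 11.8 and 24.2 CPM in T and 62.7, 57.3 and 55.0 CPM in A + T, a rise of 3.39 in A + T vs. S (SE 0.61, edgeR adjusted P = 0.0109). Bnip3 rose by 0.54 (SE 0.099) and Hmox1 by 0.96 (SE 0.22). P4ha1 (−0.74, SE 0.11) and P4ha2 (−0.63, SE 0.11), subunits of the same collagen hydroxylase family, fell. The count was 2 without animal 2 or animal 3 and 8 with DESeq2. The calls among all genes were 269, 300 and 1511 in those settings, against 1110 in the fit reported above.

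**Figure D4:**
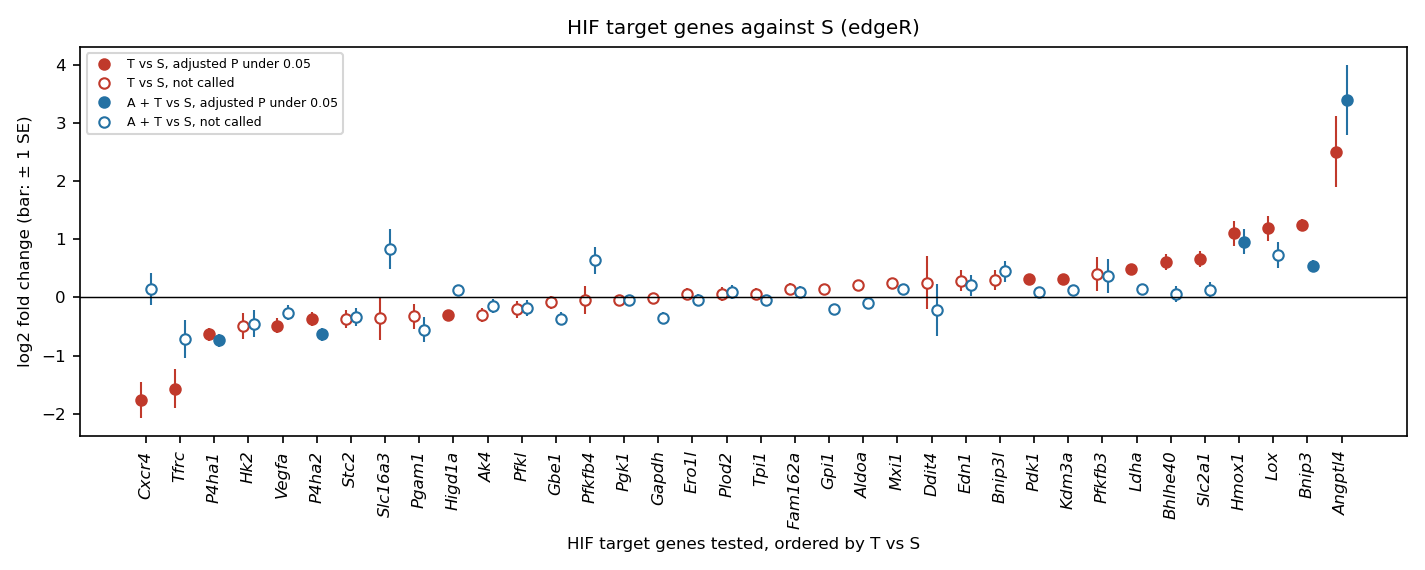
Log2 fold change (± 1 SE) of the 36 HIF target genes tested, T vs. S and A + T vs. S, ordered by T vs. S, with filled points for an edgeR adjusted P under 0.05. The filled points of T vs. S lie at both ends of the order, from Cxcr4 (−1.77) to Angptl4 (2.51), and the filled points of A + T vs. S are Angptl4, Hmox1, Bnip3, P4ha1 and P4ha2.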

How the data were processed

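Heart RNA of 9 animals was analysed, 3 per group, with groups and animal numbers taken from the sample labels. Per the study's methods, total RNA with an integrity number above a set minimum was enriched for mRNA and sequenced as paired ends. The authors used STAR for alignment to mm10 and featureCounts, with strand, to count uniquely mapped pairs on RefSeq genes, and deposited raw counts per gene without normalization. Genes with near-identical copies, such as Ldha, may lose reads in such counting. The authors also deposited log2 values, which followed the log2 CPM computed here to within a constant per gene (median SD 0.001 over 10021 genes) that correlated with log2 exon length (Pearson r = 0.789 across 9681 genes). The 3443 blank lines at the end of the table name no gene and were left out.

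As in the study's methods, a CPM below 0.5 in more than 4 libraries led to removal of a gene (526 of 13890). The 3 pairs of groups were compared with the quasi-likelihood F test of edgeR 4.0.16 (R 4.3.3), with TMM scaling, library sizes from all genes, and 1 fit over the 9 libraries. A call is a Benjamini-Hochberg adjusted P under 0.05 over all genes tested. A standard error is the log2 fold change over the square root of F, and intervals are at 95%. CPM values are scaled by TMM, and 3 counts corresponded to 0.152 to 0.281 CPM. Intervals cover the spread between these animals, and a low number of counts adds counting error that reads without molecular identifiers do not fully show. Coordinates are those of GENCODE M21 (GRCm38), and promoter sequences are those of RefSeq (GRCm38.p6).

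The members and both gene lists were chosen with earlier results of these data known, and no list was tested as a set. 1 gene first placed in the target list is not reported here. From each list and comparison, the 4 genes with the smallest adjusted P in each direction were named, and the 5 genes most correlated with the member of smallest adjusted P in T vs. S. Vhl, Arnt, Siah2, the levels of Angptl4 in T and the shares given for Hif3a, Egln3 and Epas1 were added after their values were seen. The levels of Cxcr4, Lox and P4ha1 were added in the same way. The fits were tested on simulated data. Alternatives were DESeq2 1.42.0, limma-voom (limma 3.58.1), upper-quartile scaling, library size only, a minimum of 10 counts in every library, the unfiltered table, the groups compared alone, the deposited log2 values with limma, the study's thresholds (unadjusted P under 0.05 and 1.5-fold), the table without Rn45s, the fit without animals 12 and 22, and each animal left out in turn. Figures were drawn with Python 3.11.15 and matplotlib 3.10.9.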

Additional observations from a re-analysis of the deposited data

How the results depend on the processing

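No paired analysis was possible because the animals carry different numbers in each group. The count of members called in T vs. S was 2 with scaling by library size only and 2 at the study's thresholds, and 4 otherwise. Of all genes, 1637 and 1899 passed in those 2 settings, against 2837 in the fit reported above. Against T, the count of members in A + T was 0 with the deposited log2 values and 0 to 1 with each animal left out. Of all genes, 742 and 130 to 1006 were called there, against 786 in the fit reported above. In A + T vs. S the count of members was 2 at the study's thresholds. The count of targets was 9 in T vs. S at the study's thresholds. For A + T vs. T it was 11 with DESeq2, 3 with upper-quartile scaling, 2 with library size only, 2 with the compared groups alone and 1 to 6 with each animal left out. For A + T vs. S it was 8 with DESeq2, 8 at the study's thresholds and 2 to 7 with each animal left out. Among all genes, A + T vs. T called 1200 with DESeq2, 759 with upper-quartile scaling, 438 with library size only and 217 with the compared groups alone. A + T vs. S called 1511 of all genes with DESeq2, 1191 at the study's thresholds and 269 to 1086 with each animal left out. The count of partners in A + T vs. S was 1 at the study's thresholds and 2 to 4 with each animal left out. That 1 was Siah2, which was lower and is not among the 4 partners called at the adjusted P.

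Among log2 fold changes, the direction turned only for values that no setting called. Without animals 12 and 22, Epas1 in A + T vs. T was −0.068, Egln1 0.038 in T vs. S and 7.52e-05 in A + T vs. S, Egln2 −0.043 in A + T vs. S, Egln3 0.15, Hif1an −0.0013 and Ankrd37 0.038 in A + T vs. T. Egln1 in T vs. S was 0.0010 with DESeq2 and 0.0041 with the compared groups alone. Egln3 in A + T vs. T was 0.027 with upper-quartile scaling and 0.011 with library size only. Hif1an in A + T vs. T was −0.0039 with DESeq2, −0.0014 without the filter and −0.000305 with the deposited values. With each animal left out, A + T vs. T ran from −0.0021 to 0.20 for Epas1, −0.15 to 0.18 for Egln3, −0.063 to 0.081 for Hif1an and −0.19 to 0.0028 for Ankrd37. A + T vs. S ran from −0.19 to 0.0043 for Epas1, −0.15 to 6.97e-05 for Egln1 and −0.043 to 0.088 for Egln2, and T vs. S from −0.039 to 0.031 for Egln1. The causes were not tested. With 3 animals per group, the intervals of Hif3a and Ankrd37 were wide.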
